A study of Homo sapiens with 12 samples.

Results

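The subject here is the expressed ZNF genes of breast cancer xenografts, the rows of the count table whose symbol is ZNF followed by a number and, in some, a letter. The genes were chosen by their measured level, a mean over the 12 libraries of at least 10 CPM (a gene's count divided by the total of its library and scaled to a common total), and those levels are given as a description. It kept 229 of the 527 ZNF genes among the 25369 gene symbols of the table. The other 298 fell below the floor, and 13 of those had no read in any library. ZNF280C (10.2 CPM), ZNF490 (10.2 CPM) and ZNF512B (10.02 CPM) stood just inside the floor, and ZNF317 (9.97 CPM), ZNF45 (9.93 CPM) and ZNF526 (9.92 CPM) just outside it. All 229 passed the filter on low counts that precedes the tests.

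The tumours grew from MDA-MB-231, an established human triple-negative breast cancer cell line, injected in 50 µl of Matrigel into a mammary fat pad of mice, in groups of 10 animals. Intraperitoneal dosing on 5 days a week began at a tumour volume of 100 mm3. Control animals were given the vehicle, made of 4% DMSO, 30% PEG 300 and 5% Tween 80. SB202190, which blocks the p38 stress kinases, was given at 1 mg/kg/day (p38i). An inhibitor of EZH2, a methyltransferase that places a repressive mark on histones, was given at 10 mg/kg/day (EZH2i), and the labels write it both as EPZ-6428 and as EPZ-6438. Animals of the combination arm were treated with SB202190 and the EZH2 inhibitor together. Each group has 3 sequenced tumours. The mouse strain, the animals' age and the length of treatment are not given in the sources used here, and all the tumours derive from a single cell line. The study asked how EZH2 and p38 signalling act together in breast cancer progression.

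Zinc finger proteins of the C2H2 kind hold a zinc ion in a short loop with a pair of cysteines and a pair of histidines, and strings of such fingers read DNA bases in a row. Many also carry a KRAB domain, which recruits the corepressor TRIM28 and through it enzymes that lay down repressive chromatin, in many cases on transposable elements. Genes of the KRAB class are young, multiplied in tandem and sit in clusters, the largest of them on chromosome 19. ZNF genes without KRAB include transcription factors, subunits of chromatin complexes and proteins of RNA handling and mitosis.

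Of the 229 genes, 225 matched a coding gene in GENCODE, and 137 of those matched a profile of the KRAB domain, against 88 that did not. A RefSeq promoter window existed for 201, and 93 of these lay on chromosome 19, of which 81 had the KRAB match. Genes with KRAB had a median of 12 finger matches per protein and genes without it 5.5. The median of the 229 mean levels was 20.04 CPM. Only 15 genes reached 100 CPM, while 100 lay between 20 and 100 CPM and 114 below 20 CPM. The 10 that took the most reads were ZNF24, ZNF395, ZNF451, ZNF207, ZNF292, ZNF106, ZNF148, ZNF428, ZNF33A and ZNF281, and only ZNF33A among them had the KRAB match. The labels name both a SMARTER mRNA kit, whose reads rise with transcript length, and QuantSeq, which reads transcript ends. Which was used is not settled, so this order is one of reads and not of transcripts. The median of the mean levels was 18.3 CPM with KRAB and 31.3 CPM without.

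Sequence just upstream of the start is shown for 3 genes that the results turn on. ZNF605 and ZNF362 passed the test for the average of the treated groups, and ZNF268 lies in the same row of neighbouring genes as ZNF605. Each line holds the 250 bases before the RefSeq gene start, 5′ to 3′ on the strand of the gene, from GRCh38.p14, with the CG dinucleotides in capitals. ZNF605 is at chr12:132956307-132956556 on the minus strand, ZNF268 at chr12:133181245-133181494 on the plus strand, and ZNF362 at chr1:33256242-33256491 on the plus strand.
ZNF605: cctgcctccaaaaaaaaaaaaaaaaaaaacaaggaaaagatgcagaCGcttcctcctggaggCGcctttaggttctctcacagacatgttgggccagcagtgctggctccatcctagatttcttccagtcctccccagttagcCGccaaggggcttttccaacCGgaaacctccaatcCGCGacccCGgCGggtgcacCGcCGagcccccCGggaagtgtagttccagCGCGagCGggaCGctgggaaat
ZNF268: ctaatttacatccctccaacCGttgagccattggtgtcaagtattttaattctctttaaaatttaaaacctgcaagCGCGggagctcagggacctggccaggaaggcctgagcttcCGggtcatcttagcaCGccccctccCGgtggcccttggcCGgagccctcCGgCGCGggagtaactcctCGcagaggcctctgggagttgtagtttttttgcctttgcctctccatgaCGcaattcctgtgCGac
ZNF362: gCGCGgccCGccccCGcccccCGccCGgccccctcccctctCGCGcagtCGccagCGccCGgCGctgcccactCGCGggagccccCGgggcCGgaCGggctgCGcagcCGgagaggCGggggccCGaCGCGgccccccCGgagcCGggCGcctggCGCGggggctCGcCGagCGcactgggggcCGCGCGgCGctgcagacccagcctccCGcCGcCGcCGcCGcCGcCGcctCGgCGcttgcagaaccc
The stretch of ZNF362 holds 44 CG dinucleotides, that of ZNF605 15 and that of ZNF268 13. Over windows of 300 bases (250 before and 50 after the start), the 201 ZNF genes had a median of 22 CG dinucleotides, against 14 over all 27305 windows of the table. The letters TGANTCA, the core of the AP-1 motif, occurred in 10 of the 201 windows (4.98%) and in 7.76% of all windows. TGACGTCA, the cyclic AMP response element, also occurred in 10 (4.98%), against 1.98% of all windows. Both motifs read alike on either strand, and neither string contains the other. TGACGTCA itself holds a CG. The 27305 windows were taken whatever the level of the gene, while the ZNF genes were chosen as expressed. In these contrasts expression level and ZNF family therefore cannot be told apart.

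The libraries held 2208770 to 4467940 counts, and the 229 genes together took 0.773% to 0.888% of them. A ZNF gene had a median of 70 counts in a library and a lowest count of 9, so that counting error alone gave a median coefficient of variation of 12.1%. Their median coefficient of variation within groups was 19.3%, against 18.3% for the 9042 tested genes of at least 10 CPM. All 11 markers listed for MDA-MB-231 were read and summed to 0.958% to 1.29% of counts, while 9 luminal markers summed to 0.0278% to 0.0614%. Among the luminal markers ESR1, PGR, FOXA1 and CDH1 had medians of 4.95, 4.14, 6.73 and 4.09 CPM, and KRT18, KRT8, EPCAM, GATA3 and ERBB2 of 189, 42.1, 36.4, 30.1 and 22.3 CPM. No label ties the p38i libraries called col5 and col6 to a single sample, since 2 p38i samples name column 5 and none names column 6, which was joined to p38i by elimination. The library p38i col6 carried skeletal muscle markers at 0.161% of counts, against at most 0.015% in every other library, and the part of this in the results was not tested. The library control 1-1 stood apart for these genes. Of the 229, 74 (32.3%) had their highest value there, against 16.4% of the 12514 genes tested.

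Summed over the 229 genes, the controls reached 8882, 8104 and 7829 CPM. The p38i libraries 3-3, col5 and col6 gave 7888, 7918 and 7729 CPM, the EZH2i libraries 5-3, 5-4 and 6-1 gave 7872, 7845 and 8306 CPM, and the combination libraries 8-1, 9-1 and 9-2 gave 8038, 7795 and 7764 CPM. Control 1-1 was the highest of all, and control 2-1 lay inside the ranges of p38i and the combination and below all 3 EZH2i tumours. The controls had a mean of 8272 ± 546 CPM, p38i one of 7845 ± 101 CPM, EZH2i one of 8008 ± 258 CPM and the combination one of 7866 ± 150 CPM (SD, n = 3). Two-sided exact permutation tests against control gave p = 0.3, 0.7 and 0.2 (0.45, 0.7 and 0.45 after Benjamini-Hochberg adjustment over the 3), where 3 against 3 cannot go below 0.1. The median level of the genes, on the log2 CPM scale after TMM scaling, was 4.59, 4.45 and 4.40 in the controls and 4.28 to 4.42 in the treated libraries. On that scale control 2-1 lay below EZH2i 5-3, EZH2i 6-1 and p38i col5. MALAT1, a nuclear RNA, took 3.12% to 3.88% of counts in the controls and 1.47% to 2.82% in the treated libraries, and its part in the ZNF levels was not tested.

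**Figure D1:**
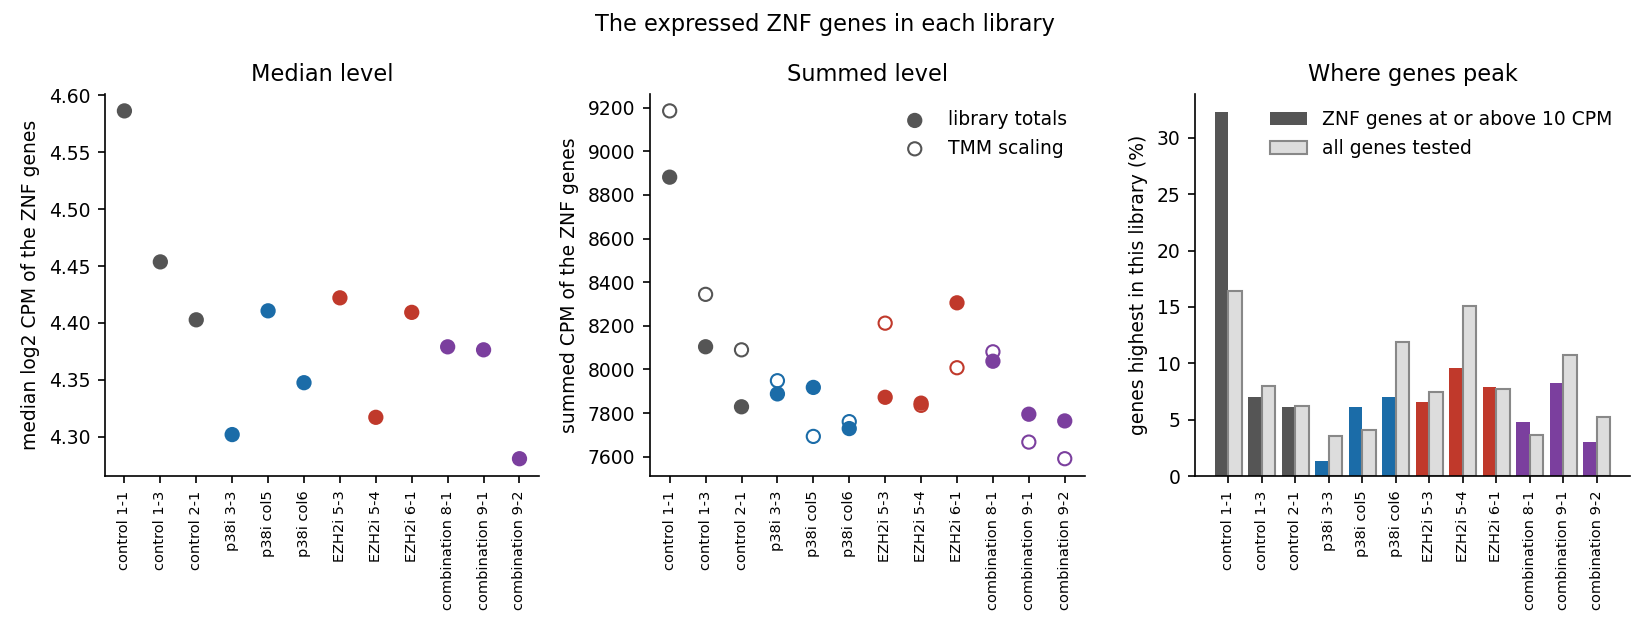
The 229 ZNF genes in each library, with 1 point or bar per library. The left panel gives their median log2 CPM after TMM scaling, the middle panel their summed CPM by library totals (filled) and by TMM scaling (open), and the right panel the percentage of ZNF genes (coloured by treatment group) and of all genes tested (light) whose highest value is in that library. The first 2 vertical axes do not start at 0. Control 1-1 is highest in all 3 panels, with 32.3% of the ZNF genes.

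ZNF521 was the 1 ZNF gene that passed the test with each compound given alone, and it rose in both. It encodes a transcriptional cofactor with many fingers and no KRAB domain, known from blood, bone and neural progenitors, whose N-terminal motif binds the NuRD deacetylase complex. Its level was 9.16, 12.3 and 10.4 CPM in the controls. It was 28.3, 31.5 and 21.0 CPM in the p38i libraries 3-3, col5 and col6, 20.3, 35.5 and 26.6 CPM in the EZH2i libraries 5-3, 5-4 and 6-1, and 19.6, 29.7 and 23.5 CPM in the combination libraries 8-1, 9-1 and 9-2. All 9 treated tumours lay above all 3 controls, and the treated groups overlapped one another. These values rest on 22 to 44 reads per control library and 50 to 143 per treated library.

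The fold change of ZNF521 was 2.51 with p38i (log2 1.33, SE 0.262, adjusted p = 0.0298), 2.59 with EZH2i (log2 1.37, SE 0.263, adjusted p = 0.0487) and 2.28 with the combination (log2 1.19, SE 0.262, adjusted p = 0.133). These and the following adjusted p-values are from edgeR's quasi-likelihood test with Benjamini-Hochberg adjustment over all 12514 genes, and the 3 comparisons share the same 3 control tumours. For the combination the test was not passed at 0.05. The non-additivity term (combination minus p38i minus EZH2i plus control) was -1.51 on the log2 scale for ZNF521 (SE 0.359, adjusted p = 0.101), which did not pass edgeR's test. DESeq2 called the same term (log2 -1.51, adjusted p = 0.024). The p38i call was lost without control 1-1 (log2 1.25, adjusted p = 0.0905), control 1-3 (1.45, 0.109), p38i 3-3 (1.29, 0.0759), col5 (1.22, 0.0866) or col6 (1.49, 0.0663). Without both col5 and col6, which leaves 1 p38i library assumed to vary like the other groups, the log2 fold change was 1.42. The EZH2i call was kept in 2 of 12 fits that left out 1 library, those without EZH2i 5-3 (log2 1.57, adjusted p = 0.0305) or p38i col6 (1.39, 0.0462). In the other 10 the log2 fold change was 1.13 to 1.496 and the adjusted p 0.0549 to 0.25. ZNF521 thus kept its direction and lost its call in these fits. In such bulk tumours more cells that express a gene and more RNA per cell cannot be told apart. No promoter sequence of ZNF521 is shown.

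**Figure D2:**
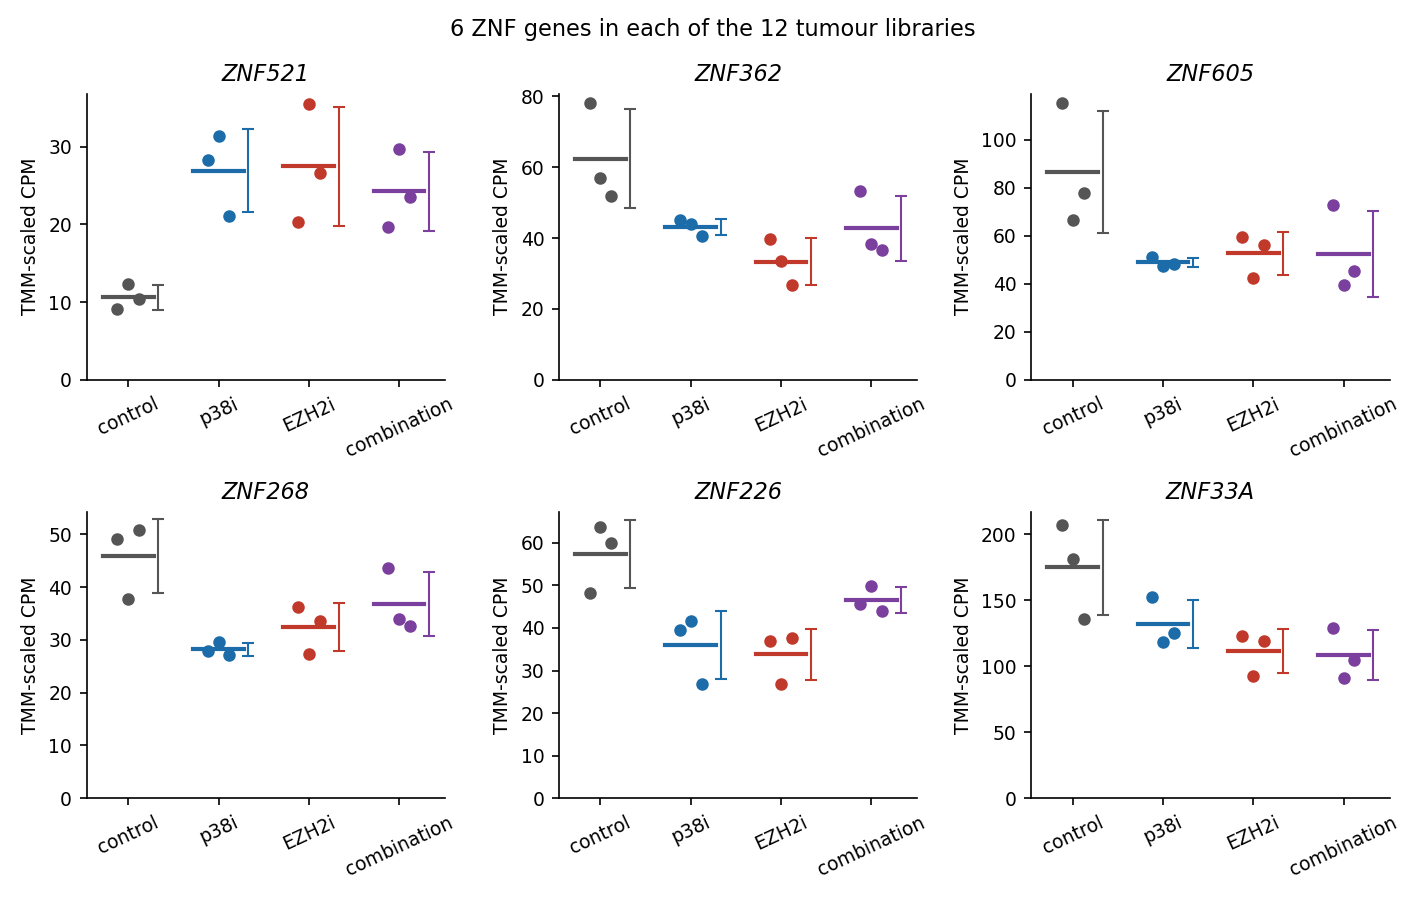
Levels of 6 ZNF genes, as CPM after TMM scaling on axes that start at 0, with 1 point per tumour, the group mean as a bar and the SD (n = 3) as a whisker to its right. ZNF521 was 9.16 to 12.3 CPM in the controls and 19.6 to 35.5 CPM in all treated tumours, while ZNF362, ZNF605, ZNF268, ZNF226 and ZNF33A had their highest group mean in the controls.

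With p38i alone, ZNF521 was the only 1 of the 229 genes called (0.437%), against 1.77% of all genes tested. Without an adjustment, 37 ZNF genes (16.2%) had p under 0.05, 6 of them higher and 31 lower, against 18.4% of all genes. The share past that line was thus no larger than in the background, but its direction was uneven. Over all genes tested, 1136 were higher and 1164 lower by the same measure. Among the ZNF genes 10 had all p38i tumours above all controls, against 12.3% of all genes, and 39 had all p38i tumours below all controls, against 12.5%. These are 4.37% and 17.0% of the 229. The log2 fold change was negative for 154 of 229 (67.2%), against 50.1% of all genes, with a median of -0.157 against -0.001. DESeq2 called 6 ZNF genes, ZNF521 higher and ZNF605, ZNF84, ZNF268, ZNF226 and ZNF704 lower, where it called 5.72% of all genes. Without control 1-1 the median of the ZNF genes was -0.081, with 139 of 229 negative and 18 at an unadjusted p under 0.05. In that fit edgeR called no ZNF gene, where it called 0.251% of all genes. Without col5 and col6, which leaves 1 p38i library, the median was -0.139, with 151 of 229 negative.

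The ZNF genes with the smallest p among those lower in every p38i tumour than in every control were ZNF268, ZNF84, ZNF226, ZNF605 and ZNF133, all with KRAB. ZNF268, a KRAB protein with 25 finger matches, was 49.1, 37.8 and 50.7 CPM in the controls and 28.0, 29.5 and 27.2 CPM in p38i. Its p38i tumours lay close together below the controls, and the log2 fold change was -0.70 (SE 0.188, adjusted p = 0.0732, not passed). ZNF226 was 48.3, 63.6 and 60.0 CPM in the controls and 39.5, 41.7 and 26.9 CPM in p38i (log2 -0.68, SE 0.201, adjusted p = 0.0965). ZNF133, a KRAB repressor on chromosome 20, was 19.1, 15.3 and 16.6 CPM against 8.18, 12.1 and 6.12 CPM (log2 -0.94, SE 0.282, adjusted p = 0.0975). On the higher side, after ZNF521, came ZNF76, ZNF512, ZNF614 and ZNF511. ZNF76, a close relative of the transcription factor ZNF143, was 43.7, 41.7 and 47.2 CPM in the controls and 51.8, 59.1 and 62.9 CPM in p38i (log2 0.39, adjusted p = 0.185). ZNF512 stood at 20.05 ± 2.67 CPM in control and 27.5 ± 0.825 CPM in p38i (SD, n = 3, log2 0.45, adjusted p = 0.209).

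**Figure D3:**
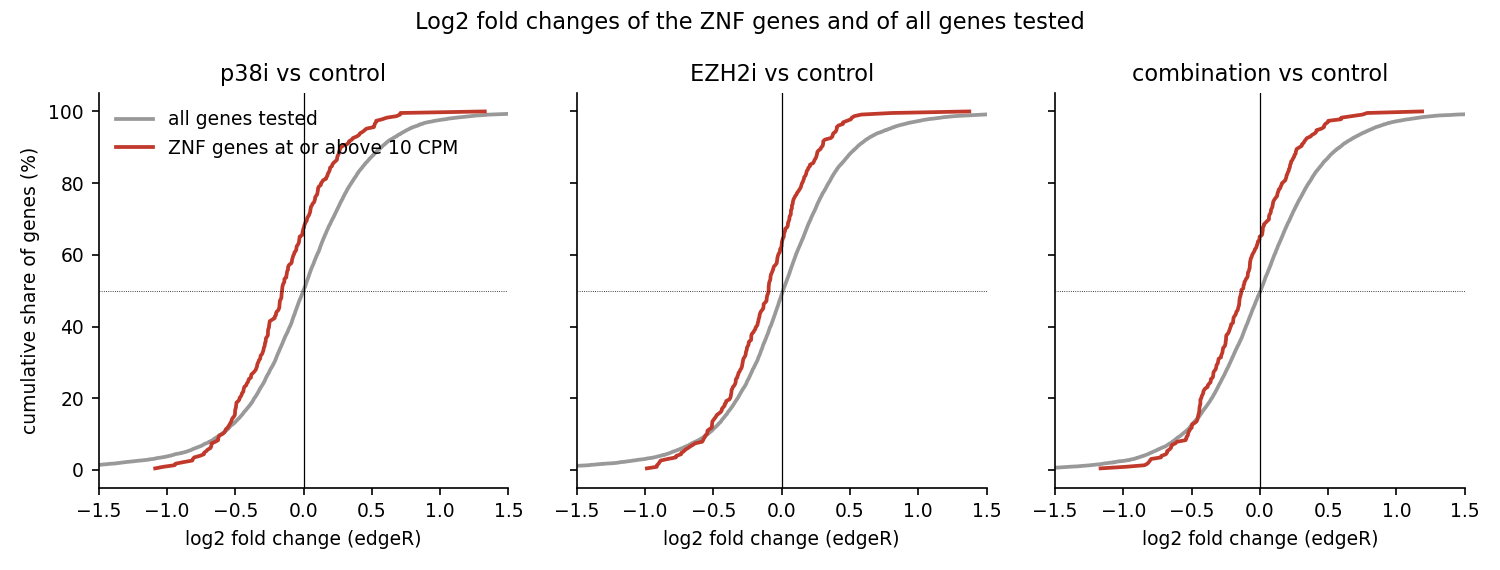
Cumulative share of genes (%) by log2 fold change against control for the 229 ZNF genes (red) and the 12514 genes tested (grey), 1 panel per treatment. The axis ends at ±1.5, beyond which only grey values lie, and the red curve crosses 50% at -0.157 for p38i, -0.096 for EZH2i and -0.135 for the combination.

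With EZH2i alone, ZNF521 was again the 1 ZNF gene called (0.437%), against 0.216% of all genes, and the unadjusted p was under 0.05 for 28 (12.2%) against 14.7%. Of those 28, 5 were higher and 23 lower. All EZH2i tumours lay above all controls for 11 ZNF genes, against 8.32% of all genes, and below them for 26, against 8.09%, which are 4.80% and 11.4% of the 229. The median log2 fold change was -0.096 against 0.009 for all genes, and 144 of 229 were negative. Without EZH2i 5-4 the unadjusted p was under 0.05 for 13 ZNF genes. limma-voom called none of the 229, where it called 0.128% of all genes. DESeq2 called 3, ZNF521 higher and ZNF362 and ZNF226 lower, where it called 2.01% of all genes.

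ZNF362, a gene without KRAB, was the ZNF gene with the smallest p on the lower side under EZH2i. Its controls 1-1, 1-3 and 2-1 were at 78.3, 57.0 and 51.9 CPM. Its EZH2i tumours 5-3, 5-4 and 6-1 were at 39.8, 33.6 and 26.6 CPM, all below the controls (log2 -0.89, SE 0.213, adjusted p = 0.105). ZNF226 followed, at 37.0, 26.8 and 37.5 CPM in EZH2i (log2 -0.78, SE 0.204, adjusted p = 0.124), then ZNF529, ZNF33A and ZNF16 with log2 values of -0.69, -0.65 and -0.83. After ZNF521 on the higher side came ZNF799, ZNF512, ZNF24 and ZNF780A. ZNF24, a SCAN domain factor that represses VEGFA and the ZNF gene with the most reads, was 251, 231 and 211 CPM in the controls and 302, 353 and 268 CPM in EZH2i. All 3 EZH2i tumours lay above the controls, with a log2 fold change of 0.41 (SE 0.155, adjusted p = 0.238). ZNF799 rested on low levels, 7.73 ± 1.88 CPM in control and 13.5 ± 1.53 CPM in EZH2i (SD, n = 3, log2 0.81, adjusted p = 0.194). Its control mean lay below the floor of 10 CPM, so ZNF799 was kept only through treated libraries in which it was higher.

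With the combination, edgeR called none of the 229, against 0.00799% of all genes tested, a single gene. The unadjusted p was under 0.05 for 32 ZNF genes (14.0%) against 16.3% of all genes, 6 higher and 26 lower. All combination tumours were above all controls for 10 ZNF genes (4.37%), against 10.7% of all genes, and below them for 30 (13.1%), against 11.2%. The median was -0.135 against 0.005, with 149 of 229 negative. Without control 1-1 the median was -0.079 and 13 ZNF genes had an unadjusted p under 0.05, and without combination 9-2 it was -0.082, with 17. That number was 15 without combination 9-1, 18 without control 1-3 and 49 without control 2-1. limma-voom called none of the ZNF genes and 0.00799% of all genes. DESeq2 called 4, ZNF521 higher and ZNF33A, ZNF428 and ZNF608 lower, where it called 1.74% of all genes.

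On the lower side the smallest p was that of ZNF608, a protein with 1 finger match and no KRAB. It was 164, 103 and 74.7 CPM in the controls and 66.2, 45.1 and 39.9 CPM in the combination (log2 -1.17, SE 0.316, adjusted p = 0.18). Its control values spread over more than the gap between the groups, with control 1-1 the highest. ZNF33A, a KRAB gene on chromosome 10, was 207, 181 and 136 CPM in the controls and 129, 91.4 and 104 CPM in the combination (log2 -0.69, SE 0.192, adjusted p = 0.18). ZNF428, a short protein with 1 finger match, was 225, 227 and 164 CPM against 144, 91.4 and 113 CPM (log2 -0.82, SE 0.230, adjusted p = 0.183). ZNF629 and ZNF419, the other two of the 5 with the smallest p on this side, each stood at -0.81. On the higher side, after ZNF521, the same rule named ZNF799, ZNF780A, ZNF185 and ZNF468. ZNF780A was 14.2, 12.3 and 15.9 CPM in the controls and 21.1, 20.3 and 18.5 CPM in the combination (log2 0.50, adjusted p = 0.256).

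No ZNF gene was called by edgeR between the combination and either compound alone, and no gene of the table was (0% in both). Against p38i alone, 20 ZNF genes (8.73%) had an unadjusted p under 0.05, against 7.81% of all genes, and the median was 0.025. Against EZH2i alone there were 13 (5.68%), against 3.12%, and the median was -0.024. DESeq2 called no ZNF gene in either comparison, where it called 0.056% and 0.00799% of all genes, and limma-voom called none, where it called 0% in both. For the non-additivity term edgeR called no ZNF gene, against 0.024% of all genes, and 29 (12.7%) had an unadjusted p under 0.05, against 13.1%. Of those 29, 23 were positive and 6 negative, and 141 of the 229 terms were positive, with a median of 0.127 against -0.006 for all genes. The median was 0.037 without combination 8-1, 0.052 without control 1-1, 0.078 without p38i col6 and 0.084 without EZH2i 5-4 or without both p38i col5 and col6. The term is positive where the log2 change of the combination stood above the 2 single changes added together, whichever way those went. limma-voom called no ZNF gene for it, where it called 0.024% of all genes. DESeq2 called 3, ZNF140 and ZNF226 positive and ZNF521 negative, where it called 1.96% of all genes.

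The average of the 3 treated groups against control tests their mean shift, with 9 tumours on one side, and can pass where not all 3 groups changed. It called 3 of the 229 genes (1.31%), against 3.08% of all genes. ZNF521 rose (log2 1.30, SE 0.227, adjusted p = 0.0113), and ZNF362 and ZNF605 fell. The unadjusted p was under 0.05 for 40 ZNF genes (17.5%) against 21.6% of all genes, 4 higher and 36 lower. The median was -0.151 against 0.005, and 158 of 229 (69.0%) were negative. Without control 1-1 the median was -0.067 and 19 ZNF genes had an unadjusted p under 0.05, and without both p38i col5 and col6 it was -0.139, with 25. DESeq2 called 11, the same 3 and ZNF33A, ZNF268, ZNF629, ZNF529, ZNF226, ZNF827, ZNF608 and ZNF704, all 8 lower, where it called 6.77% of all genes.

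ZNF605, a KRAB gene with 17 finger matches, was 115, 66.6 and 77.7 CPM in the controls. It was 51.1, 47.5 and 48.4 CPM in p38i, 59.4, 42.5 and 56.3 CPM in EZH2i and 72.7, 39.4 and 45.2 CPM in the combination. The combination tumour 8-1 overlapped the controls, and the other 8 treated tumours lay below them. Its log2 change in the treated average was -0.75 (SE 0.191, adjusted p = 0.0485). For ZNF362 the p38i tumours were at 45.0, 43.9 and 40.6 CPM and the combination tumours at 53.3, 38.3 and 36.7 CPM, so that combination 8-1 alone reached the range of the controls (log2 -0.65, SE 0.165, adjusted p = 0.048). Both calls stood near the threshold. Leaving out 1 library ended each of them in 9 of 12 fits, and they held without EZH2i 5-3, combination 8-1 or control 2-1. Across the 12 fits ZNF362 ranged from -0.77 to -0.46 (adjusted p from 0.0259 to 0.305) and ZNF605 from -0.90 to -0.49 (adjusted p from 0.0193 to 0.339), with the smallest change in both without control 1-1. ZNF521 kept its call in 10 of the 12 fits of the treated average and lost it without control 1-1 (log2 1.22, adjusted p = 0.0737) or control 1-3 (log2 1.42, adjusted p = 0.0841). Without both p38i col5 and col6 it was 1.34 (adjusted p = 0.0386), while ZNF362 stood at -0.62 (0.159) and ZNF605 at -0.71 (0.156).

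The lower values were more frequent among genes with KRAB. With p38i, 100 of the 137 were negative with a median of -0.18, against 52 of 88 without KRAB and a median of -0.11. With EZH2i the medians were -0.17 and -0.07, and with the combination -0.16 and -0.08. In bins of finger number chosen after the values were seen, the p38i median was -0.24 for the 92 proteins with at least 12 finger matches, -0.14 for the 79 with 6 to 11 and -0.06 for the 54 with fewer than 6. The same bins gave -0.19, -0.10 and -0.00067 with EZH2i and -0.21, -0.11 and -0.06 with the combination. These are descriptions with no test, and finger number and KRAB overlap in the same genes. Without control 1-1 the KRAB median with p38i was -0.11 and that of the genes without KRAB -0.05, and the bins gave -0.12, -0.10 and -0.03. With EZH2i the medians with and without KRAB were then -0.08 and -0.04, and the bins, at -0.07, -0.10 and 0.01, no longer followed finger number. With the combination they were -0.09 and -0.06, and the bins gave -0.09, -0.08 and -0.06. With library totals in place of TMM as scaling the KRAB and other medians with p38i were -0.13 and -0.06, beside 0.053 for all genes. The 93 ZNF genes of chromosome 19 had a p38i median of -0.16, and so had the 108 with a window on other chromosomes. The 165 ZNF genes tested below 10 CPM had medians of -0.18, -0.15 and -0.17 in the 3 comparisons, and 1 of them, ZNF554, was called lower in the treated average (log2 -1.12, edgeR adjusted p = 0.0277). The 27 ZBTB genes of at least 10 CPM, zinc finger factors with a BTB domain, had medians of -0.04, 0.05 and 0.04. The 7 ZFP genes of that level had medians of -0.10, -0.22 and -0.23, the 6 ZSCAN genes of 0.11, 0.18 and 0.14, and the 3 ZKSCAN genes of 0.26, 0.02 and 0.13.

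**Figure D4:**
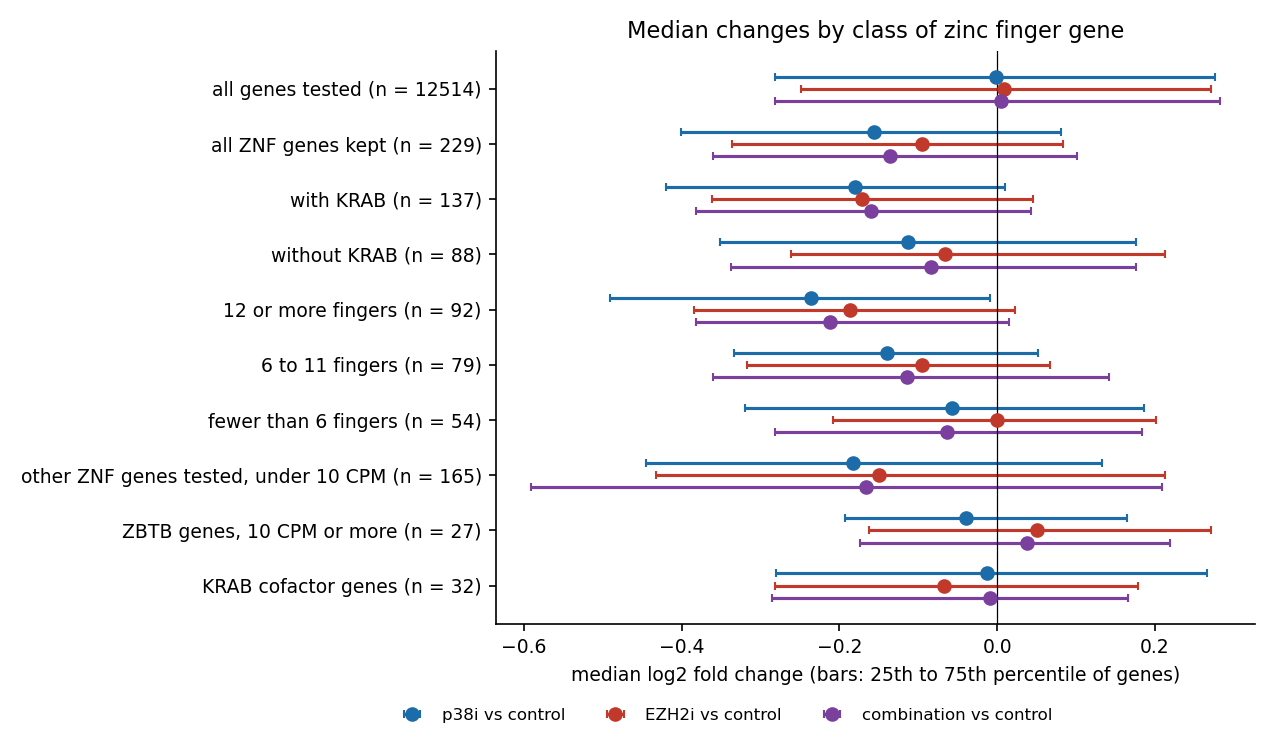
Median log2 fold change against control (points) and the range from the 25th to the 75th percentile of genes (bars) for classes of zinc finger genes, in p38i, EZH2i and the combination, with the number of genes in each class. The bars show the spread of genes and not replicate error, and the classes share genes. By finger number, the medians with p38i run from -0.24 for 12 or more fingers to -0.06 for fewer than 6. Those bins were chosen after the values were seen, and without control 1-1 they gave -0.12, -0.10 and -0.03. All genes tested (-0.001 with p38i) and KRAB cofactor genes (-0.013) are also shown.

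A row of 7 neighbouring ZNF genes near the end of chromosome 12 held 3 of the 5 genes with the smallest p on the lower side of p38i, and was singled out after the values were seen. In RefSeq order the row runs ZNF605, ZNF26, ZNF84, ZNF140, ZNF891, ZNF10 and ZNF268, with no other protein-coding gene between them. ZNF605, ZNF84, ZNF140 and ZNF268 are among the 229, and all 4 lay below every control in every p38i tumour. ZNF140 averaged 7.93 CPM in p38i and 9.11 CPM in EZH2i, below the floor of 10 CPM. It was kept only through the control and combination libraries, in which it was higher (means of 16.5 and 16.2 CPM). ZNF84 was 42.5, 21.3 and 27.7 CPM in the controls and 15.7, 17.7 and 15.9 CPM in p38i (log2 -0.88, SE 0.257, adjusted p = 0.0944). It was 29.3, 18.4 and 23.1 CPM in EZH2i and 27.0, 22.2 and 20.4 CPM in the combination, both overlapping the controls. ZNF140 was 13.7, 11.4 and 24.4 CPM in the controls, 10.9, 5.80 and 7.10 CPM in p38i and 16.7, 18.7 and 13.2 CPM in the combination, which overlapped the controls. Its log2 fold change was -1.09 with p38i (SE 0.376, adjusted p = 0.14) and -0.04 with the combination (SE 0.356, adjusted p = 0.964). None of the 4 passed edgeR's test in a comparison of a single treated group with control. The 3 neighbours below 10 CPM did not share one direction, with p38i values of 0.02 for ZNF26 (SE 0.36), -0.47 for ZNF891 (SE 0.55) and -0.27 for ZNF10 (SE 0.27). With EZH2i ZNF26 was at 0.58 (SE 0.36) while ZNF605 was at -0.72 (SE 0.245).

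**Figure D5:**
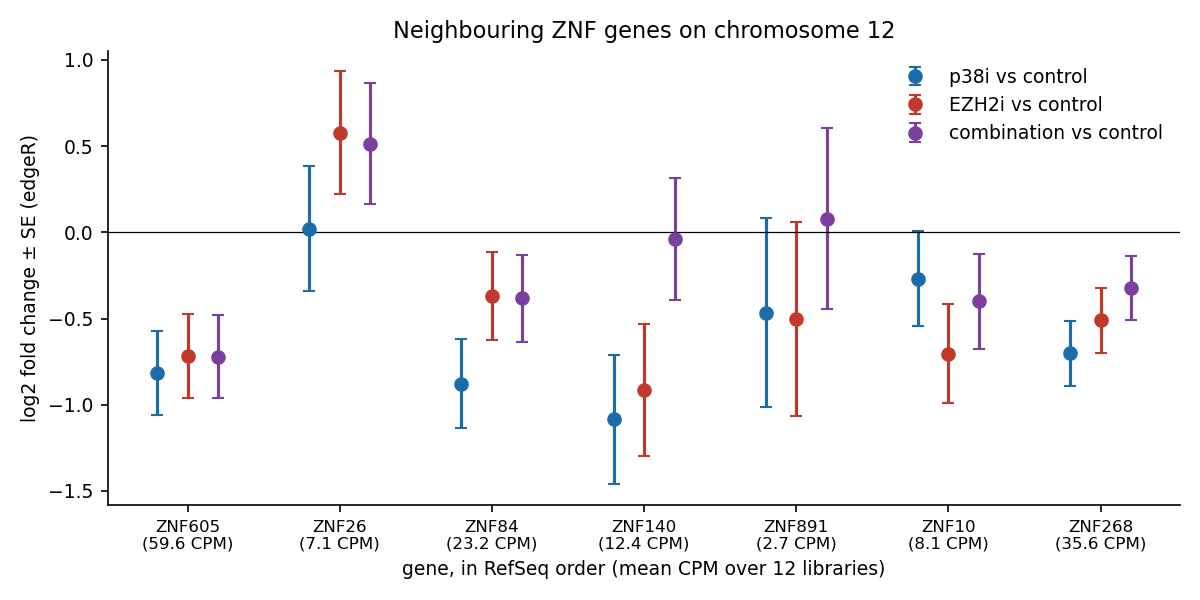
Log2 fold change against control with its SE (whiskers) for 7 neighbouring ZNF genes on chromosome 12, in RefSeq order, by treatment. The mean CPM over 12 libraries stands under each name. ZNF605, ZNF84, ZNF140 and ZNF268 lie between -1.09 and -0.70 with p38i, and ZNF26 lies at 0.02.

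By role, the KRAB partners outside the family were uneven. Of 34 listed cofactor genes 32 were tested, and with p38i 14 were higher and 18 lower, and 3 were called where 1.77% of all genes were. DAXX, a histone H3.3 chaperone, rose from 48.0 ± 7.30 to 82.8 ± 12.7 CPM (SD, n = 3, log2 0.78, adjusted p = 0.0367 by edgeR). ATF7IP, which stabilises the methyltransferase SETDB1, fell from 268 ± 37.1 to 164 ± 17.6 CPM (SD, n = 3, log2 -0.71, adjusted p = 0.0418 by edgeR). CBX5, the heterochromatin protein HP1 alpha, fell from 253 ± 27.4 to 136 ± 17.8 CPM (SD, n = 3, log2 -0.90, adjusted p = 0.0476 by edgeR). Leaving out 1 library moved the share of all genes called with p38i from 1.77% to between 0.0156% and 4.42%. That share was lowest without p38i 3-3 or without col6, and highest without control 2-1. Whether these 3 cofactor calls held in such fits was not tested. TRIM28, the corepressor that KRAB binds, was 47.2 ± 0.969 CPM in control and 66.7 ± 2.51 CPM in p38i (SD, n = 3, log2 0.50, adjusted p = 0.148 by edgeR, not passed). In the treated average edgeR called 3 of the 32, all lower, where it called 3.08% of all genes. They were ATF7IP (log2 -0.58, edgeR adjusted p = 0.028), CBX5 (-0.74, 0.0302) and ATRX, the partner of DAXX (-0.43, 0.0475). None of the 32 was called by edgeR with EZH2i or the combination, where an unadjusted p under 0.05 was found for 3 higher and 5 lower genes and for 2 higher and 7 lower genes, beside 14.7% and 16.3% of all genes.

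Among the ZNF genes of at least 10 CPM in the other role lists, edgeR called ZNF521 alone in the comparisons with control. Beside the counts below, 67.2%, 62.9% and 65.1% of all 229 had lower values with p38i, EZH2i and the combination. DESeq2 called 5.05%, 1.85% and 1.33% of all genes in these comparisons and 6.77% in the treated average. Of 22 listed KRAB genes known to bind transposable elements, 11 reached 10 CPM, and 7, 8 and 9 of these had lower values with p38i, EZH2i and the combination. edgeR called none of the 11, while DESeq2 called ZNF84 and ZNF268 with p38i and ZNF33A with the combination, all lower. In the treated average DESeq2 called ZNF33A and ZNF268, also lower. ZNF91, which represses SVA elements, was at -0.44, -0.37 and -0.51 (edgeR adjusted p 0.525, 0.653 and 0.453). The 9 SCAN domain genes had medians of -0.09, 0.16 and 0.09. Of 17 subunits or partners of chromatin complexes, 9, 11 and 10 had lower values, and DESeq2 called ZNF608 lower with the combination and ZNF608 and ZNF827 lower in the treated average, beside ZNF521. ZNF217, an amplified breast cancer gene and partner of the CoREST complex, was 92.4 ± 15.9 CPM in control and 83.7 ± 18.1, 99.2 ± 20.8 and 90.7 ± 7.73 CPM in p38i, EZH2i and the combination (SD, n = 3), within the spread of the tumours. The 14 genes of RNA handling, ribosomes, ubiquitin and mitosis had medians of 0.07, 0.03 and -0.07. ZNF451, a SUMO ligase, had the lowest coefficient of variation of the 229 genes over the 12 libraries, 7.8%, at 198 to 252 CPM. ZNF207, a spindle protein also called BuGZ, differed from control by -0.04, -0.00054 and -0.12 on the log2 scale. Of 12 listed genes studied in breast cancer, 5 reached 10 CPM, and 4, 4 and 5 of these had lower values, with no call by edgeR or DESeq2.

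At the other end, ZNF704 (54.0%), ZNF367 (51.7%) and ZNF710 (47.7%) had the largest coefficients of variation. ZNF704 was 84.1, 42.9 and 26.5 CPM in the controls and 19.6 to 31.9 CPM in the treated tumours, and control 2-1 lay inside the treated range. Its log2 change in the treated average was -0.97 (SE 0.258, adjusted p = 0.0554). Without control 2-1, edgeR called 11 ZNF genes in the treated average, 6 with p38i and 4 with the combination, and ZNF704 was in each of these 3 sets. The same fits called 7.09%, 4.42% and 1.78% of all genes. Rows for antisense or read-through transcripts exist for 4 of the 229 genes, ZNF503, ZNF664, ZNF252P and ZNF674, at up to 7.7 CPM. Whether the counting used strand is not given in the sources used here, and reads shared between near-identical ZNF genes may have been divided or dropped.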

How the data were processed

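RNA from 12 xenograft tumours, 3 in each of 4 groups, was sequenced. Per the submitters' processing notes, trimming used Trim Galore 0.5.0, and STAR 2.6.0 was the aligner, with hg19 as the genome build. The counting program, the annotation, the use of strand and any removal of mouse reads are not given in the sources used here. The values deposited by the authors are whole-number read counts per gene symbol, not normalized. Another 3 rows carry no gene name. They sum to 0 counts and entered no step. Libraries held 2208770 to 4467940 counts. P-values measure the spread between tumours.

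Counts were filtered with filterByExpr, which left 12514 genes, scaled by TMM and fitted over all 12 libraries with edgeR 4.0.16 (robust quasi-likelihood test, limma 3.58.1, R 4.3.3). P-values were adjusted by Benjamini-Hochberg over all genes tested, with a threshold of 0.05. Levels are CPM after TMM scaling unless library totals are named. The steps were tested on simulated data. DESeq2 1.42.0, limma-voom, other scalings and filters, and fits without each library were tried as alternatives. Named are the genes called in any comparison, the 5 with the smallest p in each direction among those whose groups do not overlap, the 10 with the most reads, and genes of the role lists. The ZNF genes and the lists were chosen with earlier results of these data known. KRAB domains were matched with a profile built from 308 GENCODE 29 proteins (E value at most 1e-05). GENCODE and RefSeq GRCh38.p14 served for names, protein features and sequence only, since the files use hg19.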

Additional observations from a re-analysis of the deposited data

How the results depend on the processing

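Counts of called ZNF genes moved with the tool, while the median log2 fold changes kept their sign in the comparisons with control under every setting run. DESeq2 called 6 with p38i, 3 with EZH2i, 4 with the combination, 3 for the non-additivity term and 11 in the treated average. Of all genes it called 5.05%, 1.85%, 1.33%, 1.81% and 6.77%, in the same order. limma-voom called 0 with EZH2i and 1 in the treated average, as did scaling by library totals. Over all genes the shares were 0.128% and 2.45% with limma-voom and 0.144% and 2.88% with library totals. Without a filter on low counts there were 2 with EZH2i, 1 with the combination and 5 in the treated average, where 0.54%, 0.199% and 2.5% of all genes were called. Fitting only the 2 groups compared gave 0 with EZH2i, where 0.0344% of all genes were called. Without p38i col5 and col6, which leaves 1 p38i library, the median of the ZNF genes was -0.139 with p38i and -0.139 in the treated average. Over all genes it was -0.004 and 0.008. The causes of these differences were not tested.

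Leaving out 1 library gave 0 to 6 calls with p38i, 0 to 1 with EZH2i, 0 to 4 with the combination, 0 to 0 between the combination and either compound and for the non-additivity term, and 0 to 11 in the treated average. Calls over all genes moved too, from 0.0156% to 4.42% with p38i, 0.0156% to 0.973% with EZH2i, 0% to 1.78% with the combination and 0.0937% to 7.09% in the treated average. Control 2-1 gave each of the highest counts for p38i, the combination and the treated average when left out. Leaving out control 1-1 or 1-3 gave 0 in the treated average, where 0.274% and 0.0937% of all genes were called. The medians ranged from -0.21 to -0.08 with p38i, -0.14 to -0.07 with EZH2i, -0.17 to -0.08 with the combination and -0.16 to -0.07 in the treated average. They ranged from -0.06 to 0.04 against p38i alone, -0.06 to 0.00 against EZH2i alone and 0.04 to 0.15 for the non-additivity term. The summed level after TMM scaling, chosen after seeing the data, was 8090 to 9185 CPM in the controls, above every p38i and combination tumour, while EZH2i 5-3, at 8212 CPM, lay above control 2-1. No paired analysis was possible because the groups share no replicate numbers. Depth limits single genes, with a median of 70 counts per library.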
